A study of Mus musculus with 4 samples.

Results

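Cells answer misfolded proteins and shortages of amino acids with 3 linked programmes, and the 31 genes described here are drawn from them. The genes were taken by symbol from a list and hold 9 genes of the integrated stress response, 9 of the unfolded protein response of the endoplasmic reticulum (ER) and 13 heat shock and chaperone genes. They are 31 of the 56953 genes in the deposited table, where 32 rows carry their names because Ddit3 has a second entry with 0 reads in every library. Dorsal skin of wild type C57BL/6J mice was compared after 3 days of topical treatment with NEDD8i at 10 µM or with DMSO, the solvent. NEDD8i is known here only by that label, which refers to NEDD8, a ubiquitin-like protein that activates cullin-RING ubiquitin ligases. There were 2 libraries per group, prepared with a kit that reads only the 3′ ends of transcripts. The labels name full thickness skin, while the text on extraction speaks of collected cells. The labels give neither the age of the mice nor whether the 2 libraries of a group came from separate animals, so the p-values reflect only how these libraries vary, and that variation may be technical.

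In the integrated stress response, kinases that sense ER stress, amino acid shortage, haem shortage or viral RNA phosphorylate the initiation factor eIF2, which slows most translation but favours that of Atf4. The factor ATF4 then switches on genes of amino acid synthesis and of feedback. In the unfolded protein response, the ER sensors IRE1, ATF6 and PERK raise chaperones such as BiP, the product of Hspa5. Heat shock factor HSF1 does the same for cytosolic chaperones. Epidermal keratinocytes make much protein, and small heat shock proteins such as HSPB1 are known in the upper epidermis. ATF4 is controlled largely at translation and XBP1 by splicing of its messenger, and counts of transcript ends show neither.

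Total counts ran from 5639791 to 8856572 per library, with 52.6% to 61.7% on 3 ribosomal RNA genes, which left 2287839 to 3654442 counts for all others. Hair shaft and inner root sheath genes took 1.83% of those other reads in DMSO replicate 1, against 0.00507%, 0.00353% and 0.108% in DMSO replicate 2 and NEDD8i replicates 1 and 2. Epidermal markers fitted the label of skin, with summed basal keratinocyte genes at 3020 to 5730 CPM (counts scaled to a common library size by the trimmed mean of M-values, TMM). Of the markers of deeper skin, 8 dermal fibroblast genes were summed at 80.6, 70.6, 95.8 and 147 CPM in DMSO replicates 1 and 2 and NEDD8i replicates 1 and 2, with 6 tested, 1 called higher and a median log2 fold change of 2.23. Scarcer still, 7 endothelial genes had 5 to 22 counts per library in sum with Cdh5 at 0 throughout, and 6 smooth muscle and pericyte genes had 10 to 17. Of 6 plasma cell genes, markers of a cell known for high ER chaperone levels, Jchain, Igkc and Mzb1 were at 0 in all 4 libraries, Ighg1 and Ighm had 0 to 5 counts, and Sdc1, which keratinocytes also express, had 708 to 1986. In bulk tissue, fewer cells of a type and less RNA per cell cannot be told apart.

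RefSeq promoters (GRCm38.p6, 250 bases before to 50 after the start) were available for 27 of the 31 genes, in 33 windows, and all but Hspa8, Hsp90aa1, Hsp90ab1 and Cryab were matched. The stretches below show the response elements that tie some of these genes to ATF6, ATF4 or HSF1, in capitals, read on the strand of the gene. They end before the start of transcription.

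The first 4 carry the ER stress element, CCAAT, 9 further bases, then CCACG, searched on both strands. It was found in 39 of 32851 promoter windows (0.119%) and in those of Hspa5, Hsp90b1, Calr and Creld2. Hsp90b1 has it once on each strand.
Hspa5, chr2:34771980-34772088, plus strand: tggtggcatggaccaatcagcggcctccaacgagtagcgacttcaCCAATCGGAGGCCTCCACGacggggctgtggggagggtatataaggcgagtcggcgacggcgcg
Hsp90b1, chr10:86705488-86705694, minus strand: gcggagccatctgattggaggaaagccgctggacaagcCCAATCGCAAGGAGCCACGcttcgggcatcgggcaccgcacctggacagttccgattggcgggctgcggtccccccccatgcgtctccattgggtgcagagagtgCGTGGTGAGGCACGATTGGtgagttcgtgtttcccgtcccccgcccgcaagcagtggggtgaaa
Calr, chr8:84847030-84847138, minus strand: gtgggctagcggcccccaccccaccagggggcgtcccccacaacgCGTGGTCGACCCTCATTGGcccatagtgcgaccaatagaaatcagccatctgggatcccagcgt
Creld2, chr15:88819475-88819583, plus strand: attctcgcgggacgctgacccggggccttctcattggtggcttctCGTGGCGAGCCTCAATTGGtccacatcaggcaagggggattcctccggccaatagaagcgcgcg

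The next 3 carry the amino acid response element that ATF4 binds with a C/EBP partner, searched as TGATGNAA on both strands. It was found in 3.97% of all windows and in those of Asns, Chac1, Herpud1 and Trib3, in Trib3 only downstream of the start. In Asns it overlaps a match to the heat shock element.
Asns, chr6:7693210-7693277, minus strand: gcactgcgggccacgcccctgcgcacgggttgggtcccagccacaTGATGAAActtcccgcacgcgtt
Chac1, chr2:119351004-119351101, plus strand: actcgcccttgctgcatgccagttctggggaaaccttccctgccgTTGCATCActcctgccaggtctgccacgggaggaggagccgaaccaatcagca
Herpud1, chr8:94386272-94386369, plus strand: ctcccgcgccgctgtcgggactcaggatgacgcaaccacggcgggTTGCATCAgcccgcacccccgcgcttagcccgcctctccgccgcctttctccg

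The last 2 carry the heat shock element, built from GAA and TTC units in turn. A pair of units, GAANNTTC or TTCNNGAA, was found in 15.1% of windows and in those of 10 members. A run of 3 units was found in 0.603% of windows and in those of Hspe1, Hspd1 and Hsph1, in Hsph1 only after the start. The Hspe1 stretch lies between Hspe1 and Hspd1, which are transcribed away from each other. The Hspa1a stretch is identical in Hspa1b over its 98 bases, and the 2 windows share 296 of 300 bases. The unfolded protein response element TGACGTGG, on either strand, was in 0.676% of windows and in 0 member windows.
Hspe1, chr1:55088014-55088121, plus strand: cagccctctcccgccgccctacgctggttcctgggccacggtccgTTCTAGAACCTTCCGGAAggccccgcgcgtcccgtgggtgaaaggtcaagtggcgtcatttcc
Hspa1a, chr17:34972208-34972305, minus strand: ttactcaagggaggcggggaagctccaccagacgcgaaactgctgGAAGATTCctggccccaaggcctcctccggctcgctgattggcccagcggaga
A match describes letters in these windows and is not evidence of binding.

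No gene of the 3 programmes passed the test between NEDD8i and DMSO. Of the 31 genes, 30 had enough reads to be tested, all but Chac1. Among them 0 were higher and 0 lower at a false discovery rate of 0.05 (edgeR quasi-likelihood F test, Benjamini-Hochberg over 11388 genes), where 0.782% of all tested genes passed. DESeq2 called 0 of 31 members (3.58% of all genes it gave an adjusted p) and limma-voom 0 of 30 (0.562% of all genes). At an unadjusted p under 0.05 there were 4 members with higher levels with NEDD8i (Asns, Atf4, Bag3 and Hsp90aa1), against 8.62% of all tested genes, and 1 with a lower level (Hsp90b1), against 7.86%. The median log2 fold change was 0.35 for the integrated stress response, 0.32 for the ER genes and 0.14 for the heat shock genes, beside 0.00 over all tested genes. These medians rest on the control libraries: they were 0.75, 0.67 and 0.52 without DMSO replicate 1 and 0.17, 0.06 and -0.16 without DMSO replicate 2, so the heat shock median changed sign. Without NEDD8i replicate 1 the ER median was 0.11, and without NEDD8i replicates 1 and 2 in turn the heat shock median was 0.07 and 0.06. Library sizes without TMM gave 0.09, 0.08 and -0.12, while the median of all genes moved by -0.219. Tested member values ran from -0.80 to 1.5, with standard errors of 0.27 to 0.57.

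A missed threshold does not show that the levels were alike, and the intervals say how large a difference these libraries still allow. The 95% interval of the log2 fold change lay inside -1 to 1 for 6 members, Calr, Herpud1, Hspa1a, Hspa1b, Dnajb1 and Hsp90ab1. It lay inside -2 to 2 for 27 of 30, the others being Asns, Dnajb9 and Hspb1. Both NEDD8i libraries stood above both DMSO libraries in 5 members (16.7%), Atf4, Asns, Dnajb9, Bag3 and Hsp90aa1, while 25.0% of all tested genes showed this. Both stood below in 3 members (10%), Hsp90b1, Pdia4 and Herpud1, against 22.9% of all tested genes. The other 22 members overlapped between groups.

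**Figure D1:**
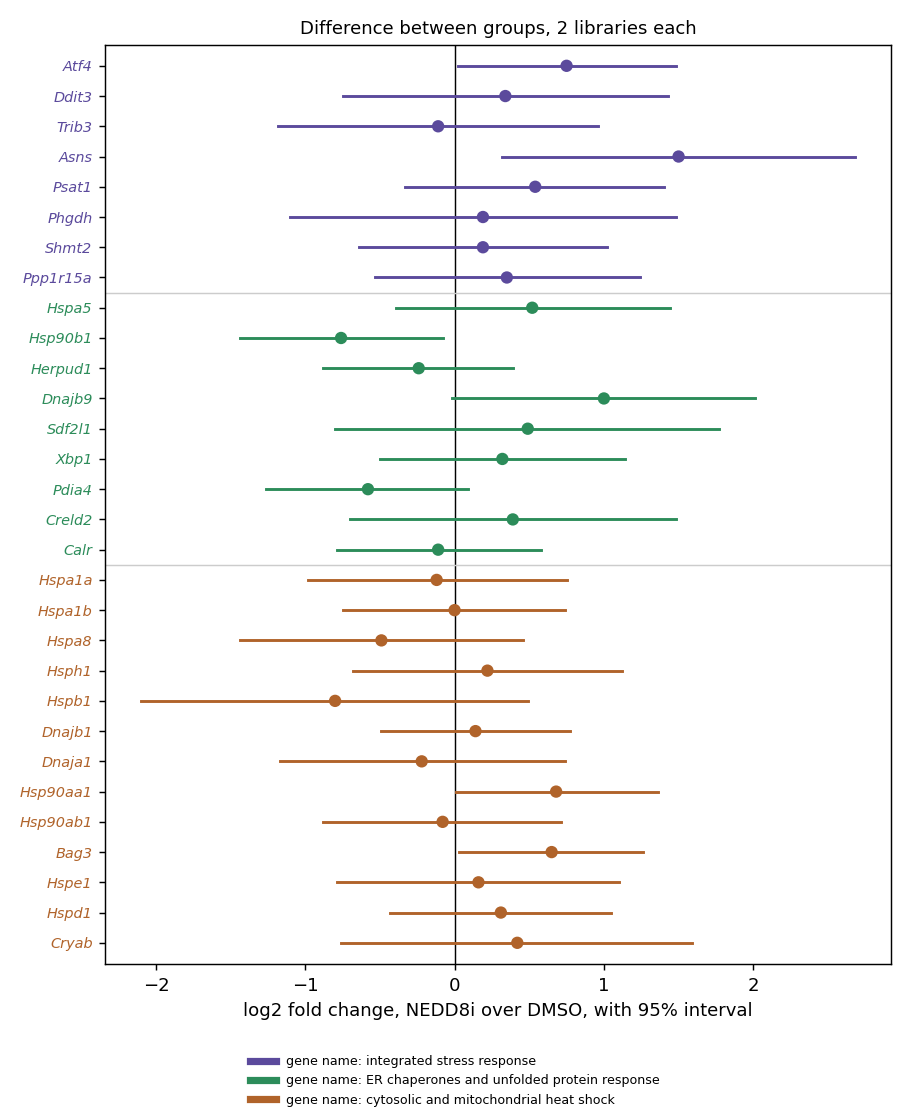
Log2 fold change (NEDD8i over DMSO) of the 30 tested members, with points for edgeR estimates and bars for 95% intervals, 2 libraries per group, coloured by programme. Asns has the highest estimate at 1.5 and Hspb1 the lowest at -0.80, and the intervals of 25 members cross 0.

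Atf4 (ENSMUSG00000042406.9, chromosome 15, 80139385 to 80141742, plus strand, coordinates of the table, taken to be GRCm39) encodes the transcription factor of the integrated stress response. It stood at 268 and 183 CPM in DMSO replicates 1 and 2, and at 384 and 373 CPM in NEDD8i replicates 1 and 2. The NEDD8i libraries lay close together and above both controls. The log2 fold change was 0.75 (95% interval 0.02 to 1.48, edgeR adjusted p = 0.291).

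Asns (ENSMUSG00000029752.13, chromosome 6, 7675169 to 7693254, minus strand), asparagine synthetase, is a classical ATF4 target whose element is printed above. Its counts were 14 and 22 in DMSO and 84 and 53 with NEDD8i, or 1.99, 3.97, 10.4 and 6.34 CPM in the same order. The groups did not overlap, on low counts. Its log2 fold change of 1.5 (95% interval 0.32 to 2.68, edgeR adjusted p = 0.2) was the largest in size among the 30 tested members.

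None of the 3 genes of serine synthesis and use among the members, a pathway that ATF4 also feeds, passed the test. Psat1, phosphoserine aminotransferase, was at 21.1 and 41.3 CPM in DMSO and 54.2 and 36.3 CPM with NEDD8i, with groups that overlapped (log2 fold change 0.54, 95% interval -0.33 to 1.40). Phgdh, which starts serine synthesis, had only 15 to 32 counts per library and a log2 fold change of 0.19. Psph, which completes serine synthesis and belongs to the wider list, stood at 13.5 and 9.92 CPM in DMSO and 18.8 and 19.5 CPM with NEDD8i (log2 fold change 0.70, edgeR adjusted p = 0.348), a gene named after its values were seen. Shmt2, the mitochondrial enzyme that moves a carbon from serine to folate, stood at 14.1, 9.20, 13.6 and 13.0 CPM across DMSO replicates 1 and 2 and NEDD8i replicates 1 and 2. In Shmt2 only DMSO replicate 2 was apart from the others. Its exons overlap those of Ndufa4l2 on the other strand, which had 110 to 226 counts, and whether strand was used in counting is not stated in the labels.

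The stress and feedback genes downstream of ATF4 had values on both sides of 0. Ddit3, encoding the factor CHOP that is linked to cell death under lasting stress, was at 11.1 and 4.33 CPM in DMSO and 9.16 and 10.5 CPM with NEDD8i. The DMSO values of Ddit3 enclosed both NEDD8i values. It overlaps Mars1 on the other strand (63 to 160 counts), so reads of the pair may be mixed. Ppp1r15a, encoding GADD34, which brings the phosphatase that reverses eIF2 phosphorylation, was at 75.3 and 35.7 CPM in DMSO and 58.4 and 83.8 CPM with NEDD8i. Ppp1r15a was highest in NEDD8i replicate 2 and DMSO replicate 1, and 10 immediate early genes (Fos, Jun, Egr1 and others) were summed at 4160, 3050, 2740 and 5080 CPM in library order, also highest in those libraries. Their part in the Ppp1r15a values was not tested. Trib3, a pseudokinase that restrains ATF4, had a log2 fold change of -0.11 on 29 to 42 counts per library.

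Chac1 (ENSMUSG00000027313.4, chromosome 2, 119181710 to 119184862, plus strand), which degrades glutathione and is among the sharpest markers of ATF4 and CHOP activity, had reads mainly in 1 library. It had 52 counts in DMSO replicate 1 and 1, 6 and 3 in DMSO replicate 2 and NEDD8i replicates 1 and 2. It therefore missed the filter on low counts. With no filter it was called lower (log2 fold change -2.76, edgeR adjusted p = 0.0442, where 2.97% of genes passed; DESeq2 gave -2.81 and 0.33), although DMSO replicate 2 lay below both NEDD8i libraries.

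The plot of levels by library sets all tested members side by side.

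**Figure D2:**
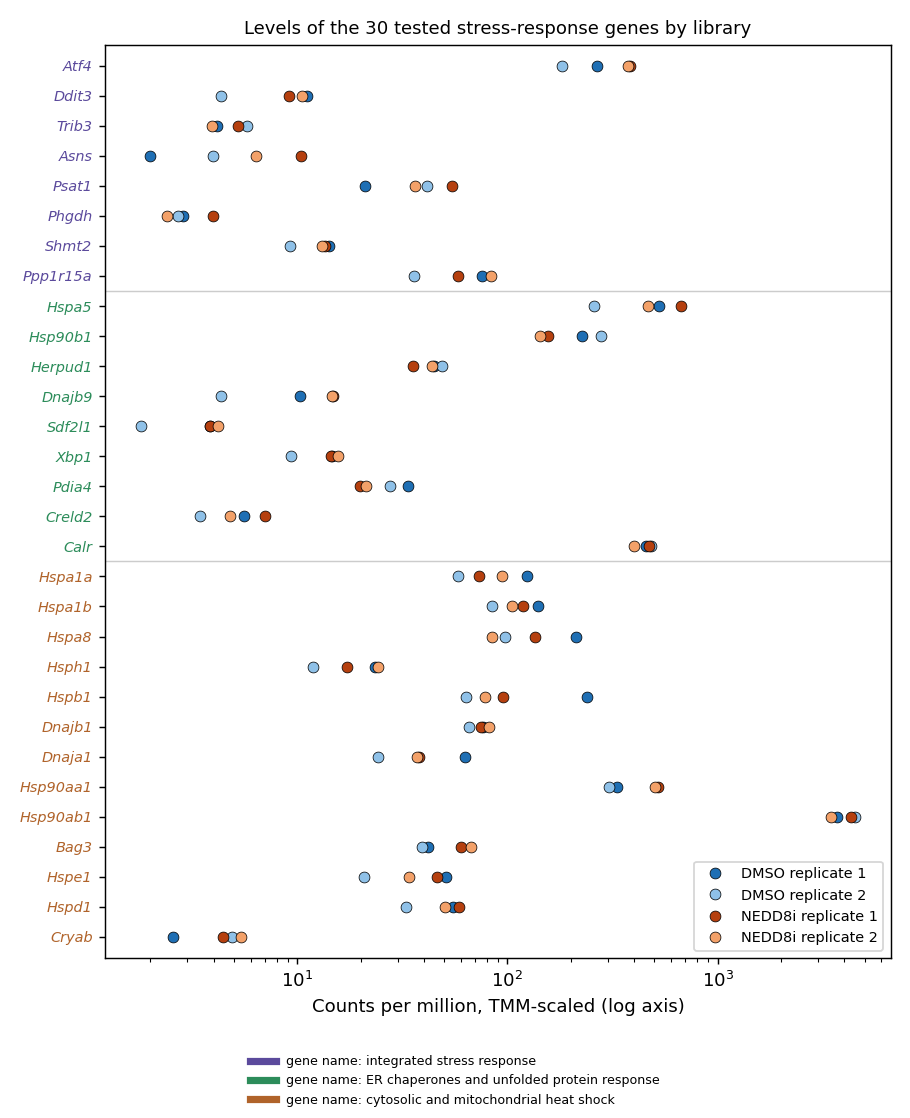
Level of each of the 30 tested members in TMM-scaled CPM (log axis), 1 point per library, 2 libraries per group. The 2 DMSO points are often the farthest apart, as in Hspb1 at 238 and 63.5 CPM. The groups overlap in 22 members, while both NEDD8i points lie above both DMSO points in 5 and below them in 3.

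Hspa5 (ENSMUSG00000026864.14, chromosome 2, 34661982 to 34667559, plus strand) encodes BiP, the main ER chaperone and the standard readout of the unfolded protein response. It stood at 528 and 258 CPM in DMSO and at 667 and 464 CPM with NEDD8i. DMSO replicate 1 lay between the NEDD8i libraries, so the groups overlapped (log2 fold change 0.52, 95% interval -0.39 to 1.44, edgeR adjusted p = 0.58).

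Hsp90b1 (ENSMUSG00000020048.14, chromosome 10, 86526704 to 86541373, minus strand) encodes GRP94, the ER member of the HSP90 family, and usually accompanies BiP. It was at 226 and 279 CPM in DMSO and at 155 and 143 CPM with NEDD8i. Both NEDD8i libraries were below both controls, on 1191 to 1585 counts per library. The log2 fold change was -0.76 (95% interval -1.44 to -0.08, edgeR adjusted p = 0.251). Pdia4, an ER disulfide isomerase, had the same order with 33.8, 27.6, 19.8 and 21.2 CPM (log2 fold change -0.58, 95% interval -1.26 to 0.09). Herpud1, which takes misfolded proteins to ER-associated degradation, stood at 44.7, 49.1, 35.4 and 43.8 CPM (log2 fold change -0.24).

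Dnajb9, encoding ERdj4, a co-chaperone of BiP that IRE1 and XBP1 induce, was at 10.3 and 4.33 CPM in DMSO and at 14.8 and 14.6 CPM with NEDD8i. The groups of Dnajb9 did not overlap, but the controls were far apart (log2 fold change 1.0, 95% interval -0.02 to 2.01, edgeR adjusted p = 0.311). Xbp1 itself, the factor made by IRE1 splicing, stood at 14.7, 9.38, 14.5 and 15.7 CPM, so that DMSO replicate 2 alone was low. Creld2 and Sdf2l1, small ER chaperone partners, had log2 fold changes of 0.39 and 0.49 on 10 to 57 counts per library. Calr, the calcium-binding lectin chaperone, was even, at 456, 483, 472 and 401 CPM. The 4 genes that carry the ER stress element therefore had values on both sides of 0, with Hspa5 and Creld2 at 0.52 and 0.39, and Calr and Hsp90b1 at -0.11 and -0.76.

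Of the 13 heat shock genes, 2 (15.4%) had both NEDD8i libraries above both controls, against 25.0% of all tested genes. Replicates of these 2 lay close together. Hsp90aa1 (ENSMUSG00000021270.14, chromosome 12, 110657039 to 110662829, minus strand), the stress-inducible cytosolic HSP90, was at 318 ± 18.9 CPM in DMSO and 511 ± 10.1 CPM with NEDD8i (means ± SD of n = 2 libraries). The log2 fold change was 0.68 (95% interval 0.01 to 1.36, edgeR adjusted p = 0.296). Bag3 (ENSMUSG00000030847.9, chromosome 7, 128125340 to 128148705, plus strand), a co-chaperone of HSP70 in selective autophagy and a target of HSF1, was at 40.6 ± 1.79 CPM and 63.6 ± 4.62 CPM (n = 2 each). Its log2 fold change was 0.65 (95% interval 0.03 to 1.26, edgeR adjusted p = 0.281). Neither passed over all genes. Hsp90ab1, the constitutive HSP90, overlapped between groups at 3711, 4496, 4295 and 3448 CPM. It was the most abundant member in CPM.

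The inducible HSP70 genes, the classical heat shock readout, did not separate the groups. Hspa1a and Hspa1b lie next to each other on chromosome 17 and are near copies, so reads may be split between them or lost, and their sum is the safer value. Together they took 0.0654% and 0.0345% of reads outside ribosomal RNA in DMSO replicates 1 and 2 (exact 95% binomial intervals 0.0624 to 0.0684 and 0.0321 to 0.037). The NEDD8i shares of 0.0424% and 0.0492% lay between them (0.0404 to 0.0446 and 0.0469 to 0.0516), intervals that cover counting error only. Their log2 fold changes were -0.12 and 0.00. Dnajb1, the HSP40 partner induced with them, was at 76.2, 65.5, 74.9 and 81.3 CPM (log2 fold change 0.14, 95% interval -0.49 to 0.77).

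The constitutive HSP70 gene Hspa8 and the small heat shock gene Hspb1 were highest in DMSO replicate 1. Hspb1 (ENSMUSG00000004951.11, chromosome 5, 135916773 to 135918417, plus strand) was at 238 and 63.5 CPM in DMSO and 95.1 and 77.8 CPM with NEDD8i. Both NEDD8i libraries lay between the controls, and the log2 fold change of -0.80 (95% interval -2.10 to 0.49) was the lowest among the tested members. A list of 9 suprabasal keratinocyte genes was summed at 4850, 8360, 4740 and 4140 CPM in library order, highest in DMSO replicate 2. Of these genes 1 was called lower, and their median log2 fold change was -0.53. Their part in the Hspb1 values was not tested. Hspa8 stood at 211, 96.9, 135 and 84.4 CPM. Dnaja1, an HSP40 co-chaperone of HSPA8, was at 62.9, 24.2, 37.98 and 37.1 CPM, and its exons overlap Smu1 on the other strand (194 to 533 counts). Hsph1, which recharges HSP70, was at 23.5, 11.9, 17.2 and 24.2 CPM.

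The mitochondrial chaperonin pair share the intergenic stretch printed above, and neither gene passed the test. Hspd1 (HSP60) was at 55.3, 32.8, 58.9 and 50.5 CPM and Hspe1 (HSP10) at 50.8, 20.8, 46.0 and 33.9 CPM in library order. In both, DMSO replicate 2 was the lowest library, and it lay below DMSO replicate 1 in 22 of 30 members. The highest library was NEDD8i replicate 1 for Hspd1 and DMSO replicate 1 for Hspe1. Their log2 fold changes were 0.31 and 0.16, with intervals of -0.43 to 1.05 and -0.79 to 1.10. Cryab, a small heat shock protein best known from muscle and lens, had only 18 to 45 counts per library (log2 fold change 0.42). A list of 10 skeletal muscle genes was summed at 29.5, 30.9, 35.0 and 44.5 CPM in library order, and its part in the Cryab values was not tested.

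The gap between the DMSO libraries was wider than the difference between groups for most members. DMSO replicate 1 exceeded DMSO replicate 2 in 22 of 30 members (73.3%) and in 11 of 13 heat shock genes (84.6%), against 49.8% of all tested genes. The median log2 ratio of replicate 1 to replicate 2 was 0.75 in heat shock genes, 0.64 in ER genes and 0.31 in integrated stress response genes, and -0.01 over all tested genes. Between the NEDD8i libraries the medians of the log2 ratio were 0.04, 0.02 and 0.23. The size of the DMSO ratio exceeded that of the group fold change in 21 of 30 members (70%), compared with 53.8% of all tested genes. Of the 8 members that went the other way, Asns, Psat1 and Cryab went farthest, with log2 ratios of -0.99, -0.97 and -0.93. The 15 hair genes and 6 melanocyte genes were also most abundant in DMSO replicate 1, the latter at 348 CPM against 42.8 to 46.7 CPM elsewhere. So were 6 adipocyte genes, at 72.6 CPM against 2.71, 10.5 and 4.91 CPM. Of 7 neutrophil genes, Camp, Ngp, Ltf and Ly6g were at 0 in all libraries, and the sum was 16.1 and 14.4 CPM in DMSO and 117 and 79.1 CPM with NEDD8i, nearly all from S100a8 and S100a9, which stressed keratinocytes also express. The part of these lists in the member values was not tested.

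**Figure D3:**
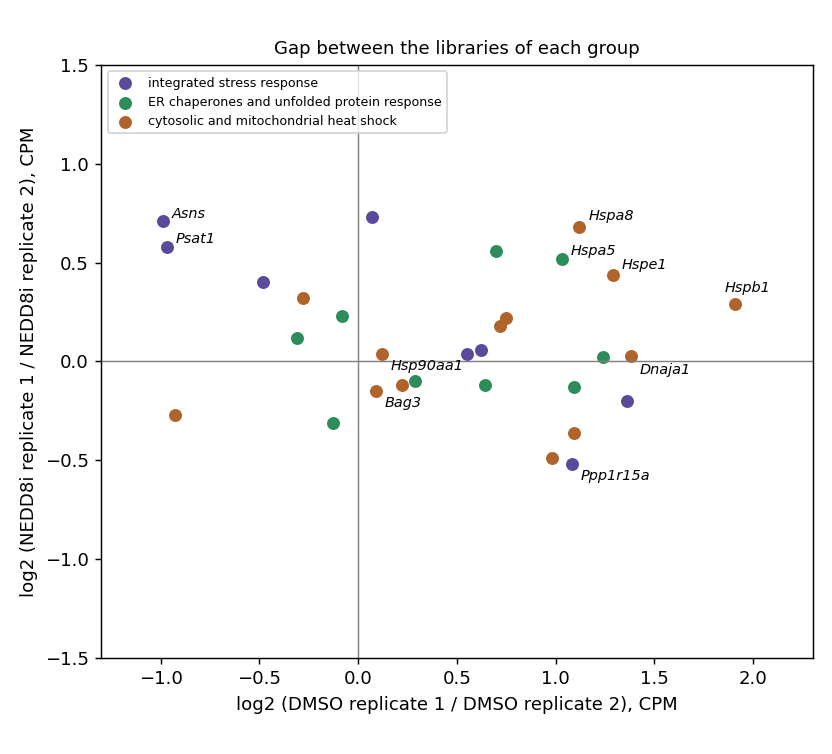
Log2 ratio of CPM between the 2 DMSO libraries (x axis) and between the 2 NEDD8i libraries (y axis) for each of the 30 tested members, coloured by programme. Hspb1 lies farthest right at 1.91, Asns farthest left at -0.99, and 22 members lie right of 0.

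Which member was called depended on the control library kept. In fits that leave 1 library out, 1 group has a single library that is assumed to vary like the others, so these calls show dependence on a library and are not findings. Without DMSO replicate 1, Atf4 (log2 fold change 1.04), Dnajb9 (1.75), Hspa5 (1.12) and Ppp1r15a (0.98) were called higher and Hsp90b1 (-0.92) lower, in a fit that called 10.4% of all genes. Without DMSO replicate 2, Asns (2.08) and Psat1 (1.12) were called higher and Chac1 (-3.70) and Hspb1 (-1.44) lower, in a fit that called 10.7%. No member was called in both fits. Hspb1 was at 0.43 without DMSO replicate 1, and Ppp1r15a at -0.06 without DMSO replicate 2. Hsp90aa1 (0.64 to 0.73) and Bag3 (0.56 to 0.74) moved least among the 5 members with groups apart upward, whichever library was left out.

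**Figure D4:**
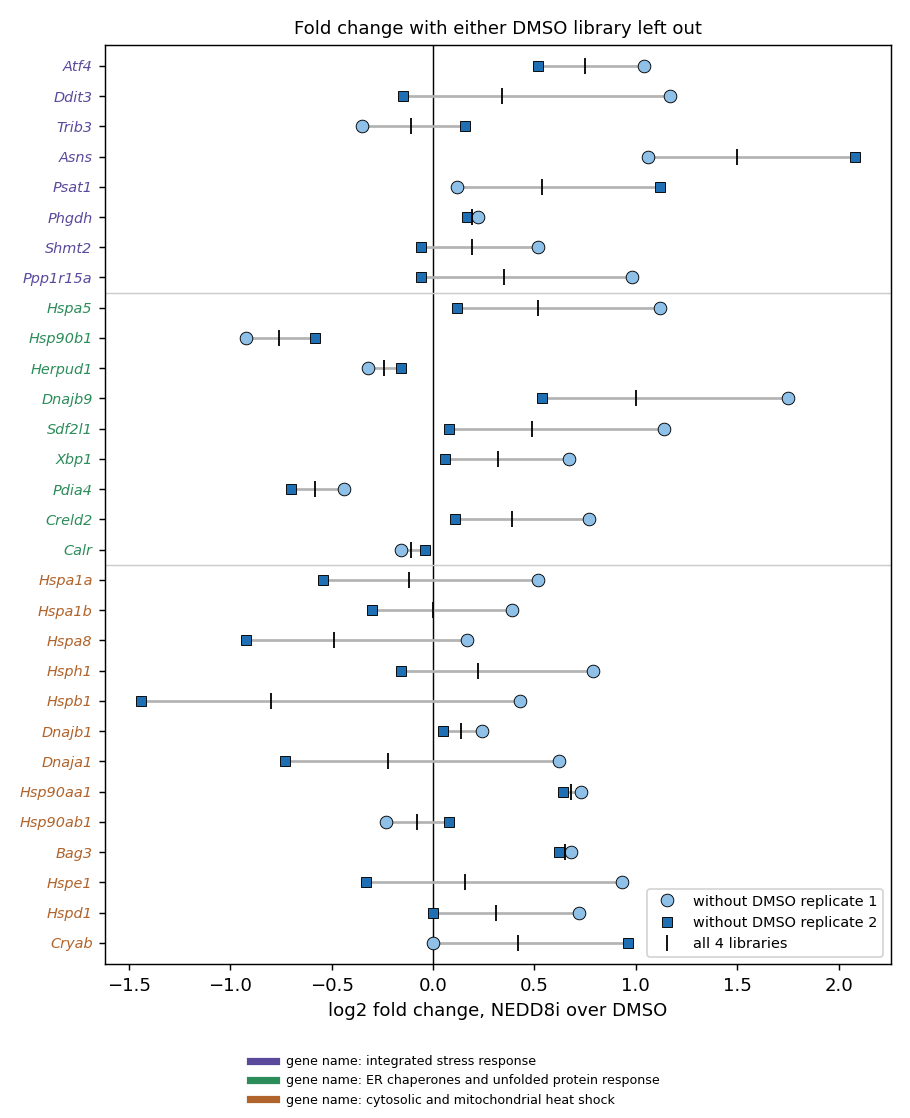
Log2 fold change of the 30 tested members without DMSO replicate 1 (circles), without DMSO replicate 2 (squares) and with all 4 libraries (ticks). Hspb1 spans -1.44 to 0.43 and Dnaja1 -0.73 to 0.62, whereas Bag3 and Hsp90aa1 hardly move.

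As shares of reads outside ribosomal RNA, the 9 integrated stress response genes took 0.101% and 0.0693% in DMSO and 0.119% and 0.131% with NEDD8i. Most of these reads were Atf4. The ER genes took 0.329%, 0.27%, 0.307% and 0.275% in library order. The 13 heat shock genes took 1.26%, 1.28%, 1.22% and 1.14%, and without Hsp90ab1 0.338%, 0.196%, 0.274% and 0.288%. With 2 libraries against 2, the exact two-sided permutation test cannot go below p = 0.333. The integrated stress response share, higher with NEDD8i, and the full heat shock share, lower with NEDD8i, reached it. Without Hsp90ab1 the heat shock share did not.

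Other genes of the same programmes gave 0 calls as well. The lists held 14 sensors and regulators, 39 integrated stress response genes, 43 ER genes and 54 cytosolic chaperones, of which 14, 31, 41 and 48 were tested. At an unadjusted p under 0.05, 2, 8, 4 and 2 had higher levels and 0, 1, 1 and 2 lower, in the same order. The higher ones made up 14.3%, 25.8%, 9.76% and 4.17% of those tested, beside 8.62% of all tested genes, and the lower ones 0%, 3.23%, 2.44% and 4.17%, beside 7.86%. The lists were chosen with earlier results of these data known, and whether their shares differ from those of all genes was not tested. The median log2 fold changes of the lists were 0.03, 0.26, 0.08 and 0.12. DESeq2 called 3 of the 132 list genes it gave an adjusted p higher (2.27%), Mthfd2, Sec24d and Ssr3, beside 2.06% of all genes.

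Of the sensors, Eif2ak3 (PERK) had 21 and 28 counts in the controls against 52 and 91 (log2 fold change 1.12, edgeR adjusted p = 0.294). Hsf1, the heat shock factor, had 10 and 17 counts against 49 and 36 (log2 fold change 1.22, edgeR adjusted p = 0.342). In CPM both NEDD8i libraries were above both controls in each gene, as in 25.0% of all tested genes. Over the 14 sensors and regulators, 7 log2 fold changes were positive and 7 negative. The eIF2 kinases Eif2ak1, Eif2ak2 and Eif2ak4, which sense haem shortage, viral RNA and amino acid shortage, stood at -0.29, 0.10 and -0.04. For Eif2ak1 both NEDD8i libraries were below both controls in CPM, as in 22.9% of all tested genes. The ER sensors Ern1 (IRE1) and Atf6 stood at 0.52 and 0.30, and Ern1 also had both NEDD8i libraries above both controls. Among abundant list genes, Atf3, a stress-induced repressor, was at -0.53, Eprs, a tRNA synthetase, at -0.18, Pdia3 and Canx, which fold glycoproteins, at -0.25 and 0.00, and Ubb, which encodes ubiquitin, at -0.07. None of these passed.

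Besides Psph, 4 genes were named after their values were seen, out of those that other fits called. Mthfd2, the mitochondrial folate enzyme and an ATF4 target, had 106 and 27 counts in the controls against 357 and 238 (log2 fold change 1.85, edgeR adjusted p = 0.129). Sec24d, a coat protein of vesicles leaving the ER, had 24 and 33 against 188 and 155 (log2 fold change 2.17, edgeR adjusted p = 0.0547). Slc7a1, a carrier of cationic amino acids, had 90 and 87 against 271 and 284 (log2 fold change 1.24, edgeR adjusted p = 0.0993). Ssr3, a subunit of the ER translocon, had 438 and 321 against 989 and 1076 (log2 fold change 1.06, edgeR adjusted p = 0.119). Because these 4 genes were picked for calls in other fits, groups apart in CPM add no support. The CPM values allow for depth, and in all 4 both NEDD8i libraries were above both controls, as in 25.0% of all tested genes. Ssr3, for example, stood at 62.4 and 57.9 CPM in DMSO and 122 and 129 CPM with NEDD8i, and Slc7a1 at 12.8 and 15.7 against 33.5 and 33.99 CPM.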

How the data were processed

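Raw counts of reads per gene, with exon coordinates, were deposited by the authors in 1 table for 2 DMSO and 2 NEDD8i skin samples. Per the submitters' processing notes, the tools include STAR, DESeq2 and featureCounts, while settings for strand and shared reads are not given in the sources used here. GRCm38 and GRCm39 are both named there. Starts equalled those of GENCODE M21 (GRCm38) in 1405 of 52029 matched genes, so table coordinates are taken to be GRCm39. Promoters are RefSeq's on GRCm38.p6, and no coordinates were converted. Groups and replicate numbers come from the labels, and reads were not stated to be collapsed by molecular identifier.

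Counts were tested as deposited in R 4.3.3 with edgeR 4.0.16 (TMM factors 0.913 to 1.18, filterByExpr with minimum count 10 and minimum total 15, robust quasi-likelihood F test, group only, Benjamini-Hochberg at 0.05). CPM values use TMM-scaled library sizes. Intervals come from the fit's standard error and degrees of freedom. A count of 3 equals 0.359 to 0.541 CPM. The steps were tested on simulated data with known changes, where edgeR recovered 4.17% of genes changed by a log2 fold change of 1. Of those changed by 2, it recovered 54.5%. Simulated counts followed the trend of spread with level, with no spread particular to a gene and no library set apart. Only 200 genes were changed over all fold sizes, so these rates are rough and may not hold for the real libraries. Alternatives were DESeq2 1.42.0, limma-voom (limma 3.58.1), RLE factors, no TMM, no ribosomal RNA genes, no filter, a fixed filter (10 counts and CPM above 1 in 2 libraries), no robust option, a replicate block, and leaving out each library in turn. Members and lists were chosen with earlier results of these data known. Every member that passed the filter was named, with the kinases, Ern1, Atf6 and Hsf1, and up to 4 called genes or otherwise the 2 most abundant from each other list, of which 1 is not reported here.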

Additional observations from a re-analysis of the deposited data

How the results depend on the processing

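With all libraries, 0 members were called under every alternative except no filter, where 1, Chac1, was lower. Leaving out 1 library gave 0 to 4 members higher and 0 to 2 lower. Genes of the wider lists called higher were 0 in the main analysis, 3 with DESeq2, 4 with no filter, 2 with the replicate block, and 0 to 12 with 1 library left out, when 0 to 4 were lower. The same fits called 3.58% of all genes with DESeq2, 2.97% with no filter, 2.54% with the replicate block, 10.4% and 10.7% without DMSO replicates 1 and 2, and 0.368% and 0.387% without NEDD8i replicates 1 and 2. These shares count calls in either direction, so they are not a measure for the higher calls alone. Counting higher calls only, DESeq2 called 2.27% of the tested wider list genes and 2.06% of all genes. With no filter these shares were 2.7% and 1.63%, and with the replicate block 1.49% and 1.6%. The fits with 1 library left out have no spread within 1 group.

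Same-numbered libraries did not deviate together (Pearson r -0.13 across genes). The replicate block raised the calls over all genes from 89 to 182 higher and 107 lower, and called 0 members. A block with the numbers crossed, added after seeing the data, called 0 members and 2 wider list genes higher, and 251 genes higher and 242 lower over all genes, more than the replicate block.

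Of 390 member fold changes under alternatives, 355 kept their direction and their side of the threshold, 8 passed it in the same direction and 27 changed sign. Library sizes without TMM moved the median of all genes by -0.219, and 5 small values with it: Phgdh -0.03, Shmt2 -0.05, Hsph1 -0.03, Dnajb1 -0.09 and Hspe1 -0.12. Hspa1b, at 0.00, was 0.04 with limma-voom, 0.02 with no filter and 0.04 with the replicate block. With 1 library left out, 13 members were positive in all 4 fits, 4 negative and 13 took both signs: Ddit3 -0.15 to 1.17, Trib3 -0.35 to 0.16, Phgdh -0.20 to 0.49, Shmt2 -0.06 to 0.52, Ppp1r15a -0.06 to 0.98, Hspa1a -0.54 to 0.52, Hspa1b -0.30 to 0.39, Hspa8 -0.92 to 0.17, Hsph1 -0.16 to 0.79, Hspb1 -1.44 to 0.43, Dnaja1 -0.73 to 0.62, Hsp90ab1 -0.23 to 0.08 and Hspe1 -0.33 to 0.93. Fewer samples enter these fits, and why the signs changed was not tested. Some members that stayed positive moved as far: Hspa5 0.12 to 1.12, Psat1 0.12 to 1.12, Sdf2l1 0.08 to 1.14, Creld2 0.11 to 0.77, Hspd1 0.00 to 0.72 and Cryab 0.00 to 0.96. Low counts limit Chac1, Phgdh, Sdf2l1, Trib3, Cryab, Creld2, Ddit3 and Asns, each with under 100 counts in every library.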
